A study of Mus musculus with 16 samples.

Results

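The genes described here were 7 imprinted genes of 2 clusters on mouse chromosome 7, chosen by name: Peg3, Usp29 and Zim1 of the Peg3 domain, and Snrpn, Ndn, Magel2 and Peg12 of the Snrpn domain. All 7 were among the 50600 genes in the count tables. Their allelic expression was followed by RNA-seq in F1 hybrid cells whose maternal genome was 129/Sv and whose paternal genome was Cast/EiJ, so that every read over a strain-specific SNP could be given to a parent. Neural progenitor cells (NPCs) were derived from hybrid embryonic stem cells, expanded as clones, and in some cases differentiated further into astrocytes. There were 5 astrocyte clones (Astro_129, Astro_C2 and Astro_G4, female; Astro_mC3 and Astro_mE6, male) and 3 NPC clones (NPC_F5, female; NPC_mG2 and NPC_mG6, male), each with 1 library of poly(A) RNA. A further 4 male NPC clones (Ch3, Ch5, Ch7 and Ch8) had 2 libraries each after ribosomal RNA depletion.

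NPCs were grown with EGF and FGF2, and astrocytes were obtained from them with BMP4 and little FGF2. The female and male clones came from 2 different embryonic stem cell lines, so sex and cell line cannot be told apart. Each clone grew from a single picked colony, so differences between clones are differences between single clones and not between replicate cultures of a condition. The astrocyte and NPC libraries analysed here were of different clones.

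Genomic imprinting is the expression of a gene from the copy of 1 parent only, set by DNA methylation that the germ cells leave at a control region and that is kept through development. A control region often governs several neighbouring genes, which is why imprinted genes lie in clusters. Peg3 encodes a zinc finger protein and is expressed from the paternal copy, and Usp29, which encodes a ubiquitin-specific protease, is read in the opposite direction from the same control region. Zim1, a zinc finger gene beside them, is expressed from the maternal copy in embryonic tissues. Snrpn encodes a spliceosomal protein and has the control region of its domain at its 5' end. Ndn (necdin) and Magel2 encode proteins of the MAGE family, and Peg12 (Frat3) belongs to the Frat family of GSK3-binding proteins. These 4 genes are expressed from the paternal copy, and the corresponding human region is the Prader-Willi locus.

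All members lie on chromosome 7, in coordinates of GRCm38. In the Peg3 domain, Zim1 occupies chr7:6674444-6696540, Peg3 chr7:6703892-6730462 and Usp29 chr7:6730559-6967220. In the Snrpn domain, the annotated Snrpn transcripts span chr7:59982495-60450177, and Ndn lies at chr7:62348277-62349928, Magel2 at chr7:62376979-62381640 and Peg12 at chr7:62461871-62464510. Snurf shares the exons of Snrpn on the same strand, so reads of these 2 genes were not separated.

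The sequences before the start sites of the 4 members with the clearest differences between clones are given here, since imprints are written as methylation of CpG sites. They are RefSeq sequences of GRCm38.p6, on the strand of the named gene, 5' to 3', and the capitals mark CpG sites. The first is the interval of 163 bases between the divergent start sites used here for Peg3 and Usp29 (chr7:6730420-6730582, minus strand), with 5 CpG sites. The annotated spans of the 2 genes reach into this interval, to 6730462 for Peg3 and from 6730559 for Usp29. The full 250 bases before each start held 8 CpG sites for Peg3 and 14 for Usp29. The others are the 250 bases upstream of the Snrpn start site that it shares with Snurf (chr7:60005200-60005449, minus strand) with 3 CpG sites, of Ndn (chr7:62348027-62348276, plus strand) with 5, and of Peg12 (chr7:62464511-62464760, minus strand) with 8. Snrpn has 3 further start sites in RefSeq, farther upstream, with 2 to 4 CpG sites before them. The median over 32851 windows of 250 bases upstream of RefSeq start sites was 6.
Peg3 and Usp29: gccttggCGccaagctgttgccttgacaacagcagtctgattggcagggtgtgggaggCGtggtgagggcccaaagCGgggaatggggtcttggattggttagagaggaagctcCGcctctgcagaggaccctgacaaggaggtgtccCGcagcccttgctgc
Snrpn: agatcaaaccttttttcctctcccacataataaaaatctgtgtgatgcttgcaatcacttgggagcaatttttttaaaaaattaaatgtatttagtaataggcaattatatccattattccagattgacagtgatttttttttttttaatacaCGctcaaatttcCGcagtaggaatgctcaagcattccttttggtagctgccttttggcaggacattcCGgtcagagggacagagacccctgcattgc
Ndn: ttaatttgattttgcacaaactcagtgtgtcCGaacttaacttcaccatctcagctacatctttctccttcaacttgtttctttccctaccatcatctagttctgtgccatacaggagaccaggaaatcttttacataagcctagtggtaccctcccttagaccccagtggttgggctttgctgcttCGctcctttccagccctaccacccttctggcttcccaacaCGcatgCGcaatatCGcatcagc
Peg12: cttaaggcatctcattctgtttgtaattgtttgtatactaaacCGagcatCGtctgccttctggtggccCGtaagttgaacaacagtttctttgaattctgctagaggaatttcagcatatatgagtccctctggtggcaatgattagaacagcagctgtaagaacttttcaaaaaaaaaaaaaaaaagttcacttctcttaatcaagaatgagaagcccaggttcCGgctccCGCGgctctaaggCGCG

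A pair of motifs was searched on both strands in the 250 bases before the RefSeq start sites used here for the 7 members. These were TGCCGC, which the imprint maintenance protein ZFP57 recognises, and GCCATNTT, a core motif of YY1. TGCCGC was present in 8.68% and GCCATNTT in 3.91% of the 32851 windows. Among the members, 1 TGCCGC was found before Zim1 and neither motif before the others. These letters were looked for only in these windows, which do not cover the control regions as a whole.

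The libraries held from 20871111 to 105892734 reads on genes, and the allele-specific part was 33.4 to 34.8% in astrocytes, 30.5 to 31.8% in poly(A) NPCs and 18.9 to 21.1% in the Ch libraries. Levels are given as CPM, normalised counts relative to the library total, adjusted by TMM separately for the poly(A) and the Ch libraries, so they are compared only within these sets. Astrocyte libraries had low proliferation markers (Mki67 and Top2a summed to 3.81 to 13.5 CPM, against 870 to 990 in poly(A) NPCs), and the astrocyte marker Gfap ranged from 65.4 to 1977 CPM in them and from 0.67 to 2.12 CPM in poly(A) NPCs. Of the fibroblast markers, Col1a1 reached 211 CPM in Astro_C2 and 2.39 to 34.0 CPM in the other astrocytes. The other fibroblast markers were low in Astro_C2, with Col1a2 at 0.04, Dcn at 1.15 and Postn at 0.82 CPM. Dcn was higher in Astro_129 (2.08 CPM) and Postn in Astro_mC3 (1.00 CPM). The 6 neuronal markers summed to 13.3 to 39.2 CPM in astrocytes and 14.9 to 32.5 CPM in poly(A) NPCs. The 4 pluripotency markers summed to 1.65 to 3.61 CPM in astrocytes and 3.18 to 5.29 CPM in poly(A) NPCs. Of these 4, Pou5f1 was at most 0.54 CPM in all clones, whereas Nanog reached 1.30 CPM in NPC_F5 and Esrrb 5.51 CPM in Ch3.

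The allelic ratio is the percentage of Cast (paternal) reads among allele-specific reads, for at least 20 such reads, with its 95% Wilson interval. Ratios under 15% or over 85% were called monoallelic and ratios from 35 to 65% biallelic, with the rest called biased. For each Ch clone, reads of both libraries were added. In the 8 male clones, 0.0758 to 0.237% of the reads on X-linked genes, which can only be maternal, had been assigned to Cast, which sets the scale of misassignment in that direction.

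The question was whether the genes of a domain were expressed from the imprinted copy alone in each clone. Of 71 values of a member in a clone with enough reads, 32 lay past the limit on the allele that imprinting would give. For the paternally expressed members the number was 31 of 60 values, and for Zim1 it was 1 of 11. In the plot of paternal shares by clone, Peg3 and Usp29 fell into the same clones, whereas the genes of the Snrpn domain did not.

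**Figure D1:**
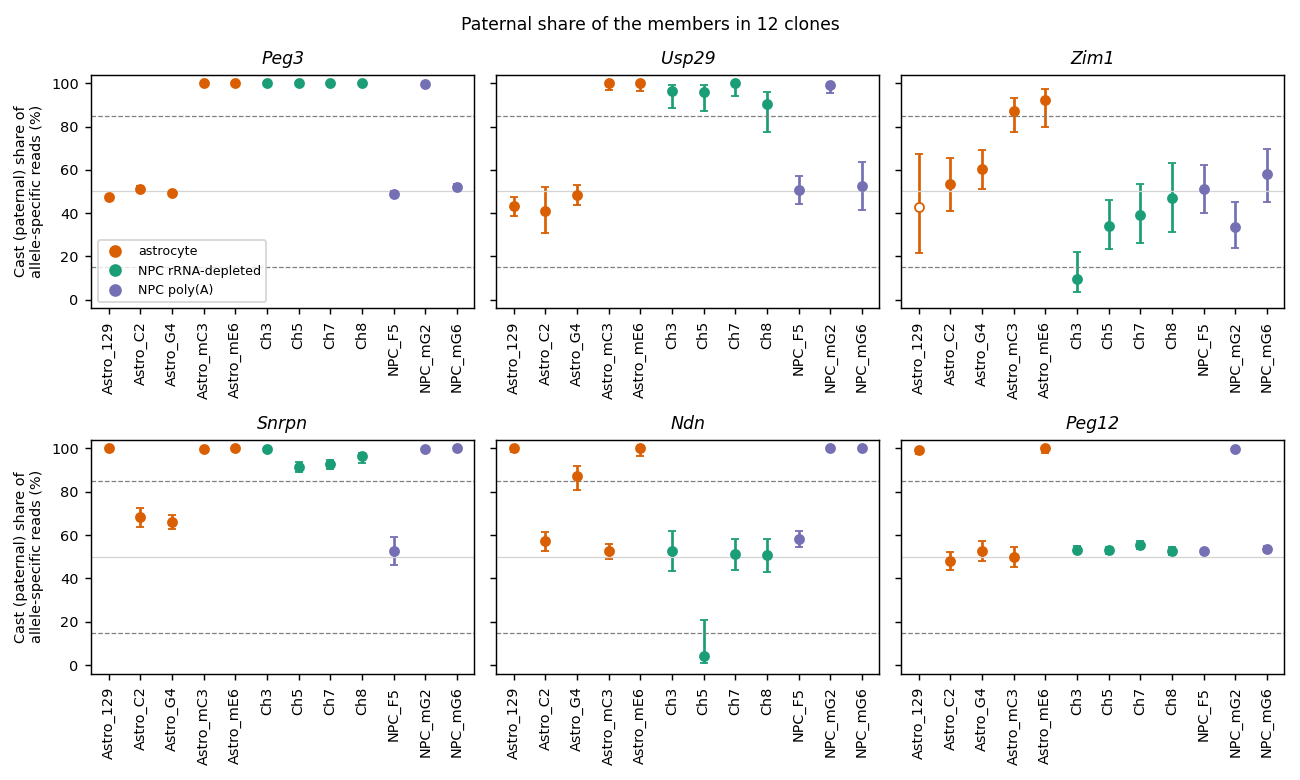
Percentage of Cast (paternal) reads among allele-specific reads (y axis) of 6 members in each of the 12 clones (x axis). Points are clones, bars are 95% Wilson intervals, the open point has under 20 reads and dashed lines mark 15 and 85%. Peg3 and Usp29 are near 50% in the same 5 clones and over 85% in the same 7, while Snrpn, Ndn and Peg12 pass 85% in 9, 5 and 3 clones.

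Peg3 was expressed from both alleles in 5 clones and from the paternal allele in 7. The Cast share was 47.3% in Astro_129, 51.2% in Astro_C2, 49.3% in Astro_G4, 49.0% in NPC_F5 and 52.0% in NPC_mG6. It was 99.9% in Astro_mC3, 99.9% in Astro_mE6, 99.8% in NPC_mG2 and at least 99.9% in the 4 Ch clones, which had 1 to 2 maternal reads each. No value lay between these 2 sets, which were 47.8 percentage points apart. The intervals were narrow, from 48.7 to 49.9% for Astro_G4 with 22815 allele-specific reads and from 99.68 to 99.98% for Ch8 with 2267. All 4 female clones were biallelic, as was 1 of the 8 male clones, NPC_mG6.

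Usp29 was on the same side of the limit as Peg3 in all 12 clones, with lower read numbers. It had Cast shares of 43.1% in Astro_129, 41.0% in Astro_C2, 48.4% in Astro_G4, 50.9% in NPC_F5 and 52.7% in NPC_mG6. The share was 100% in Astro_mC3 and Astro_mE6, 99.2% in NPC_mG2, 96.6% in Ch3, 96.2% in Ch5, 100% in Ch7 and 90.2% in Ch8. The ratios of the 2 genes differed by a median of 1.40 percentage points and by at most 10.2, in Astro_C2, where 78 reads lay behind the Usp29 value. The divergent pair was thus read from both alleles, or from the paternal allele, in each clone alike. In Ch8, 4 of 41 Usp29 reads were maternal, and all 4 came from the same library.

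Zim1, the maternally expressed neighbour, did not mirror Peg3. Its level was 0.365 to 2.79 CPM in all clones, and 34 to 109 allele-specific reads stood behind each ratio except in Astro_129, where there were 14. Ch3 alone passed the maternal limit, with 9.52% Cast (interval 3.77 to 22.1%, 42 reads). The ratio was 33.9% in Ch5, 39.1% in Ch7, 47.1% in Ch8, 33.8% in NPC_mG2, 51.3% in NPC_F5 and 57.9% in NPC_mG6. In astrocytes, it was 53.4% in Astro_C2, 60.6% in Astro_G4, 87.3% in Astro_mC3 (interval 77.6 to 93.2%) and 92.3% in Astro_mE6 (79.7 to 97.3%). In these last 2 clones Zim1 was read mostly from the paternal copy, the copy from which Peg3 and Usp29 were also read there, whereas in Ch3 it was read mostly from the opposite one.

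Snrpn kept the paternal allele in more clones than any other member, 9 of 12. The Cast share was 100% in Astro_129, 99.8% in Astro_mC3, 100% in Astro_mE6, 99.8% in NPC_mG2 and 100% in NPC_mG6. It was 99.5% in Ch3, 91.7% in Ch5, 92.9% in Ch7 and 96.4% in Ch8. The other 3 clones, all female, read both alleles to different extents: 68.3% Cast in Astro_C2 (63.9 to 72.3%), 66.1% in Astro_G4 (62.7 to 69.4%) and 52.8% in NPC_F5 (46.4 to 59.2%). The 2 astrocyte clones were in the biased range, with the paternal copy still the larger part. The fourth female clone, Astro_129, had 0 maternal Snrpn reads of 418.

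Ndn passed the paternal limit in 5 clones. The Cast share was 100% in Astro_129, Astro_mE6, NPC_mG2 and NPC_mG6, and 87.4% in Astro_G4, whose interval of 81.0 to 91.9% spanned the limit. It was 57.2% in Astro_C2, 52.7% in Astro_mC3, 58.3% in NPC_F5, 52.7% in Ch3, 51.1% in Ch7 and 50.6% in Ch8. Ch5 stood apart with 1 Cast read of 23, a share of 4.35% (0.772 to 21.0%), so that the maternal copy was the one read there. The 2 libraries of Ch5 had 1 of 11 and 0 of 12 Cast reads.

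Peg12 was monoallelic in only 3 clones, with Cast shares of 99.2% in Astro_129, 100% in Astro_mE6 and 99.9% in NPC_mG2. In the other astrocytes it was 48.0% in Astro_C2, 52.7% in Astro_G4 and 50% in Astro_mC3. In the other NPC clones it was 53.3% in Ch3, 52.9% in Ch5, 55.5% in Ch7, 52.8% in Ch8, 52.5% in NPC_F5 and 53.6% in NPC_mG6. Peg12 had 2970 to 3598 allele-specific reads in the Ch clones, and no value lay between the 2 sets.

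Magel2 could not be assessed. It had 0 reads in 5 of the 8 poly(A) libraries and at most 4 in the others, and 80 to 172 reads in each Ch clone, of which only 2 to 16 were allele-specific. The maternal and the paternal copy were both seen in Ch5 (7 Cast and 4 129 reads), Ch7 (3 and 6) and Ch8 (8 and 8). Preparation and clone cannot be told apart for its level, since the Ch clones were the only ones with ribosomal RNA depletion.

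Set against each other, the members of the Snrpn domain did not share 1 state per clone. Snrpn, Ndn and Peg12 were all past the paternal limit in 3 clones (Astro_129, Astro_mE6 and NPC_mG2), and none of the 3 genes was in 2 clones (Astro_C2 and NPC_F5). In NPC_mG6, Snrpn and Ndn were paternal and Peg12 was not. In the remaining 6 clones a single gene was paternal: Snrpn in Astro_mC3, Ch3, Ch5, Ch7 and Ch8, and Ndn in Astro_G4. Snrpn and Ndn were on the same side of the paternal limit in 6 of 12 clones, Snrpn and Peg12 in 6, and Ndn and Peg12 in 10. Biallelic, biased and maternal ratios count as 1 side here. Ch5 is thus among the 10, though Ndn was 4.35% and Peg12 52.9% Cast there. Every clone with paternal Peg12 also had paternal Snrpn and paternal Ndn. Between the domains, Peg3 and Snrpn were on the same side in 10 clones, the exceptions being Astro_129 and NPC_mG6, where Peg3 was biallelic and Snrpn paternal, and Peg3 and Ndn were so in 4.

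RNA from a clone is RNA from many cells. A ratio near 50% does not tell cells that read both alleles from a mixture of cells that read 1 allele each, and a lower level does not tell fewer expressing cells from less RNA per cell.

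Other genes of the domains were looked up by name. Mkrn3, an imprinted ring finger gene between Magel2 and Peg12, was between 42.3 and 53.9% Cast in 11 clones and 34.2% in NPC_mG2, where Snrpn, Ndn and Peg12 were all paternal. Ube3a, a ubiquitin ligase gene that is maternally expressed in neurons, was between 40.6 and 48.5% in all 12 clones. Atp10a, a lipid flippase gene beside it, was between 43.6 and 60.8%. Thus Ube3a and Atp10a, at one end of the Snrpn domain, were biallelic in all clones, including those with paternal Snrpn. Mkrn3, between Magel2 and Peg12, did not pass the paternal limit in any clone either. Zim2, Zim3, Zfp264, Peg3os, Snurf, Ipw and Snhg14 had no matching symbol and were not analysed here.

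The genes around the domains were compared with the members. They lay 138021 to 5435887 bases from the Peg3 domain and 827340 to 2693649 bases from the Snrpn domain. At these distances they cannot place a switch from monoallelic to biallelic reading. The 4 nearest genes with enough reads on each side of the Snrpn domain gave 93 ratios, of which 87 were biallelic, 6 biased and 0 monoallelic. Around the Peg3 domain, 67 of 95 ratios were biallelic, 23 biased and 5 monoallelic, and these flanks hold other zinc finger genes. Zfp583 had 100% Cast in Astro_129 (60 allele-specific reads) and 14.2% in NPC_mG6 (113 reads). Zfp954 had 1.35% in Astro_129 (74 reads), and Zfp772 had 100% in Ch3 (24 reads) and 96.4% in Astro_mC3. Zik1 and Zfp551, which lie 3510562 and 5435887 bases from the Peg3 domain, were biallelic in all 12 clones. Over chromosome 7 as a whole the median ratio of each clone was between 49.5 and 50.4%, and over the genes starting in the first 20 Mb, which include the Peg3 domain, it was between 48.6 and 50.6%. For the genes from 50 to 70 Mb, which include the Snrpn domain, it was between 47.8 and 53.2%.

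**Figure D2:**
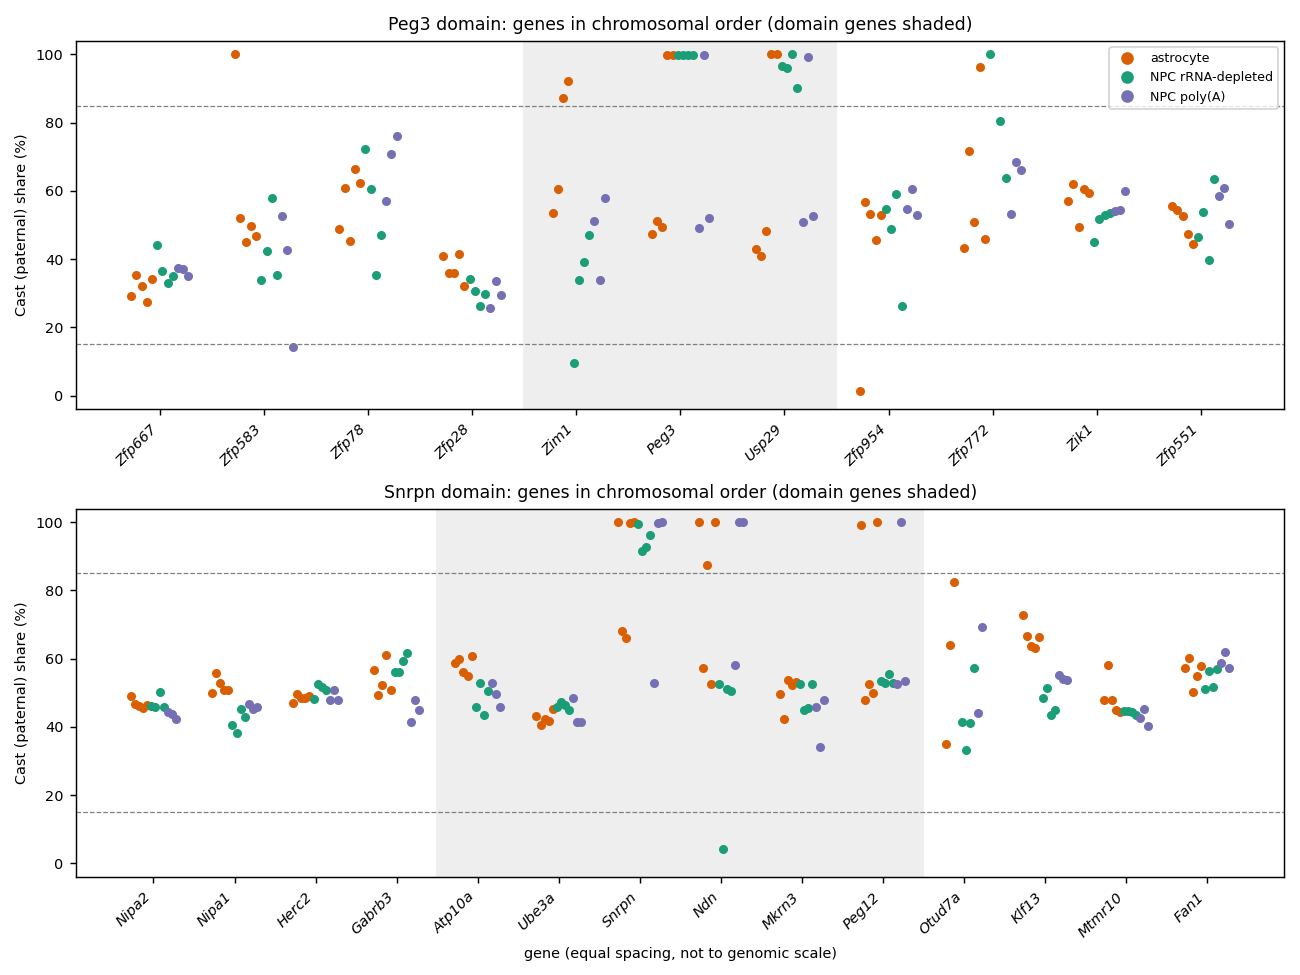
Percentage of Cast reads (y axis) for genes in chromosomal order (x axis, equal spacing) around the Peg3 domain (top) and the Snrpn domain (bottom). Points are clones with at least 20 allele-specific reads, coloured by preparation, and shaded columns are genes of the domain. Atp10a, Ube3a and Mkrn3 stay at 34.2 to 60.8% in all clones, while Snrpn, Ndn and Peg12 reach 100%.

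Whether a gene read from both alleles had a higher level was examined by splitting each level into its parental parts, as the level multiplied by the allelic share. The ratios of Peg3, Usp29, Zim1, Snrpn, Ndn and Peg12 fell into separate sets, with gaps of 23.4 to 47.8 percentage points between neighbouring clones, so no correlation of share and level was computed, and clones were not tested in groups made from their ratios. The values are therefore given clone by clone.

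For Peg3 the levels in poly(A) NPCs were 188 CPM in NPC_F5 and 157 CPM in NPC_mG6, both biallelic, and 205 CPM in NPC_mG2, which was paternal. The paternal parts were 92.3, 81.9 and 205 CPM in that order, and the maternal parts 96.1, 75.5 and 0.362 CPM. The biallelic NPC clones thus had no more Peg3 RNA than the paternal one, and each of their alleles gave less than the single allele of NPC_mG2. In astrocytes the level was 228 CPM in Astro_129, 215 CPM in Astro_C2 and 741 CPM in Astro_G4, against 191 CPM in Astro_mC3 and 154 CPM in Astro_mE6. The paternal parts were 108, 110, 365, 191 and 154 CPM. Astro_G4 was the exception, since each of its alleles gave more than the single allele of the paternal clones.

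For Usp29 the levels were 11.2 CPM in Astro_129, 2.17 CPM in Astro_C2 and 12.1 CPM in Astro_G4, against 3.12 CPM in Astro_mC3 and 2.41 CPM in Astro_mE6. Levels of clones with both alleles lay on either side of those with 1. In poly(A) NPCs the levels were 3.89 CPM in NPC_F5, 2.12 CPM in NPC_mG6 and 3.59 CPM in NPC_mG2. The paternal parts of these 3 clones were 1.98, 1.12 and 3.56 CPM.

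For Snrpn, the astrocyte levels were 13.3 CPM in Astro_C2 and 21.8 CPM in Astro_G4, which read both alleles, and 9.55 CPM in Astro_129, 13.1 CPM in Astro_mC3 and 6.93 CPM in Astro_mE6. The paternal parts of Astro_C2 and Astro_G4 were 9.06 and 14.4 CPM and the maternal parts 4.21 and 7.39 CPM. In poly(A) NPCs the order was the opposite, with 5.26 CPM in biallelic NPC_F5 against 12.8 CPM in NPC_mG2 and 8.56 CPM in NPC_mG6. The paternal part in NPC_F5 was 2.78 CPM.

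For Ndn, the 2 biallelic astrocyte clones had the highest levels, 54.4 CPM in Astro_C2 and 102 CPM in Astro_mC3, against 26.1 CPM in Astro_129, 16.8 CPM in Astro_G4 and 12.8 CPM in Astro_mE6. Their paternal parts alone, 31.1 and 53.9 CPM, were above the whole level of the other 3. In poly(A) NPCs, Ndn was at 65.2 CPM in biallelic NPC_F5, 47.6 CPM in NPC_mG2 and 46.7 CPM in NPC_mG6, and the paternal part in NPC_F5 was 38.0 CPM.

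For Peg12, the 3 biallelic astrocyte clones (22.0 CPM in Astro_C2, 17.0 CPM in Astro_G4 and 20.1 CPM in Astro_mC3) lay above the 2 paternal ones (12.7 CPM in Astro_129 and 6.0 CPM in Astro_mE6). The paternal parts were 10.6, 8.97 and 10.0 CPM in the former and 12.6 and 6.0 CPM in the latter, so they overlapped. In poly(A) NPCs, biallelic NPC_F5 had 167 CPM and NPC_mG6 191 CPM, and paternal NPC_mG2 had 147 CPM. Their paternal parts were 87.5, 102 and 147 CPM. Neither biallelic NPC clone reached 2 times the level of the paternal one.

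**Figure D3:**
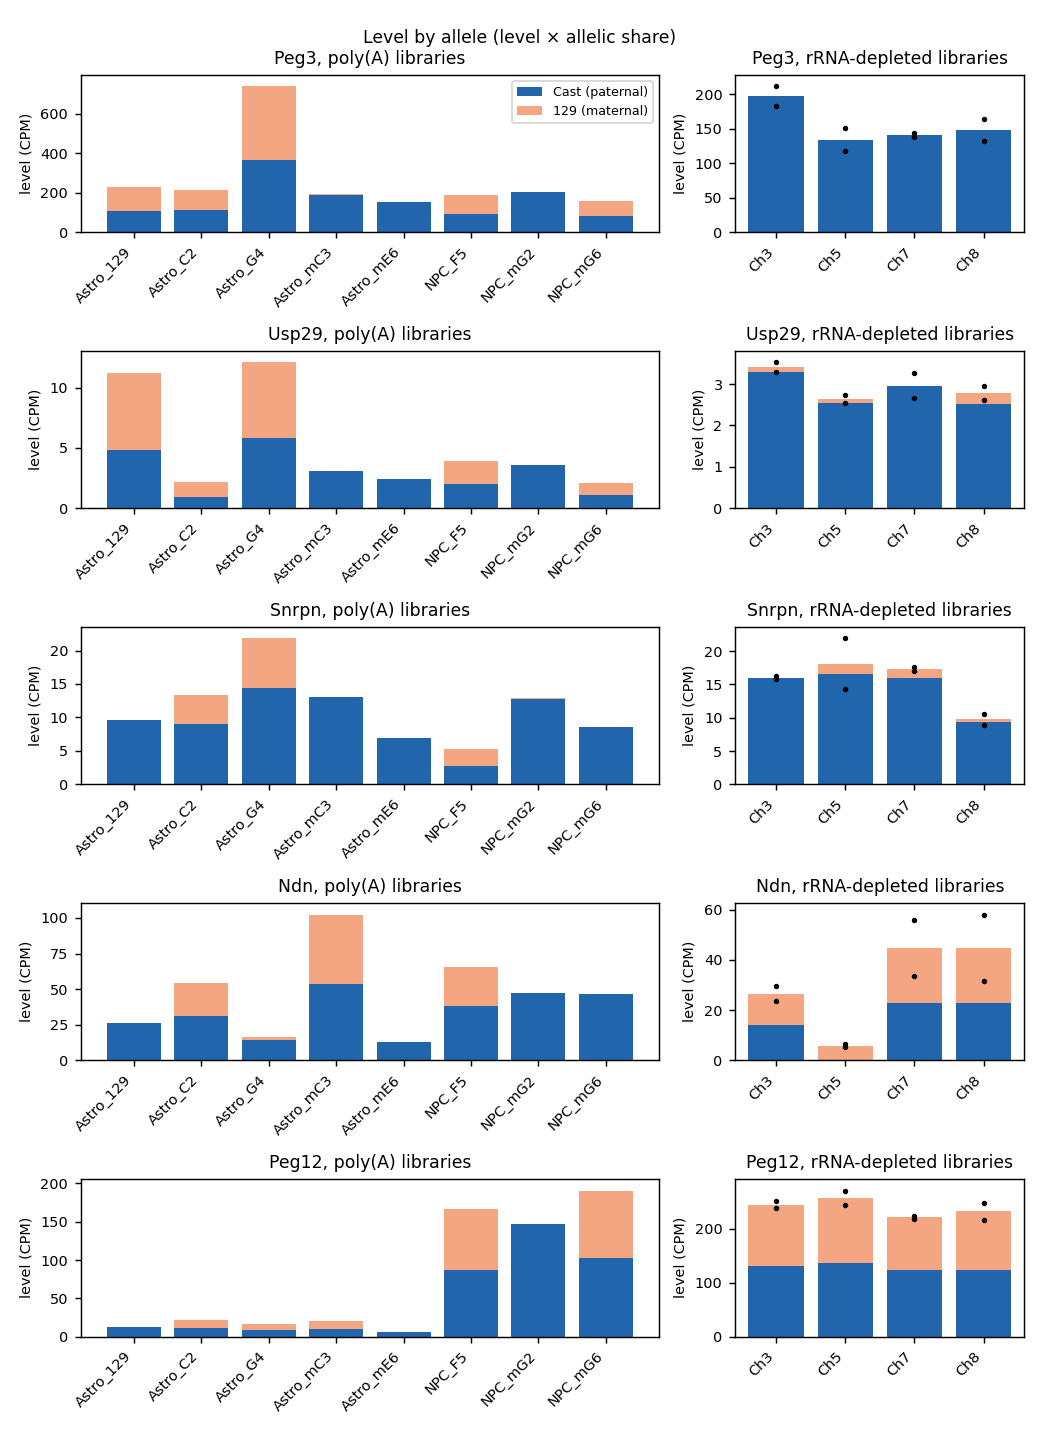
Level in CPM (y axis, from 0) of 5 members in each clone (x axis), split into the Cast and the 129 part, for poly(A) libraries (left) and Ch libraries (right, bars are means of 2 libraries and dots the libraries). Peg3 in NPC_F5 and NPC_mG6 has 2 similar parts that add to 188 and 157 CPM, near the 205 CPM from the Cast part alone in NPC_mG2.

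The Ch clones were the only ones with 2 libraries, so differences among them could be tested against the spread between libraries. Of 20 comparisons of a member between the 2 libraries of a clone, 0 passed Fisher's exact test with Benjamini-Hochberg adjustment (smallest adjusted p = 0.384, and 1 had an unadjusted p under 0.05), beside 0.322% of the 42611 comparisons over all genes. The libraries of a clone were within 4.28 percentage points of each other for Peg12, but for Zim1, with 21 to 32 reads each, they were 4.76 and 14.3% in Ch3 and 40.6 and 26.7% in Ch5. Neither pair passed the test at this depth. Among clones, the Cast share differed for Snrpn and Ndn, which are 2 of the 6 members tested, beside 8.86% of the 11428 genes tested by edgeR's quasi-likelihood test.

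Snrpn had maternal shares in the 2 libraries of 0.0 and 0.73% in Ch3, 8.46 and 8.08% in Ch5, 7.89 and 6.35% in Ch7, and 3.76 and 3.48% in Ch8. The libraries of a clone were closer to each other than to those of any other clone except between Ch5 and Ch7. The difference among clones had an adjusted p of 3.12e-07 (edgeR), with a log2 odds of Cast reads 4.17 higher in Ch3 than in Ch5, and 7.27 without the second library of Ch3, when the remaining library has no maternal read. For Ndn the adjusted p was 0.00338 (edgeR) and the log2 odds were 4.32 higher in Ch3 than in Ch5. Peg3 (adjusted p = 0.982), Usp29 (0.511), Zim1 (0.171) and Peg12 (0.749) did not pass the same edgeR test.

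The level differed among the Ch clones for Peg3, Snrpn and Ndn, 3 of the 7 members, beside 16.6% of the 17095 genes tested. Ndn was at 29.5 and 23.7 CPM in the libraries of Ch3, 6.45 and 5.35 in Ch5, 33.5 and 55.8 in Ch7, and 31.6 and 58.1 in Ch8. The libraries of Ch5 were thus below all others, and those of Ch7 and Ch8 overlapped. Ch5 was lower than Ch8 by a log2 fold change of 2.92 ± 0.318 (SE) and the adjusted p over the 4 clones was 0.000548 (edgeR). The paternal part of Ndn was 0.257 CPM in Ch5 against 14.0 to 22.8 CPM in the other Ch clones, and the maternal part was 5.65 CPM against 12.6 to 22.1 CPM. Both parts were therefore lowest in the clone that read the maternal copy.

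Snrpn was at 15.8 and 16.2 CPM in Ch3, 21.9 and 14.3 in Ch5, 17.5 and 17.0 in Ch7, and 10.5 and 8.94 in Ch8. Ch8 was below the other clones in both libraries (log2 fold change against Ch5 -0.90 ± 0.179, SE; adjusted p over the 4 clones 0.0206, edgeR). This call was lost without the second library of Ch3 (adjusted p = 0.0543) or the second of Ch8 (0.0999), and without the first of Ch5, Ch5 was higher than Ch8 by 0.56 on the log2 scale. The clones Ch5 and Ch7, with the largest maternal shares, had levels that did not differ from that of Ch3 by more than the error, with log2 fold changes of 0.18 (95% interval -0.21 to 0.57) and 0.11 (-0.28 to 0.49).

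Peg3 was at 212 and 183 CPM in Ch3, 151 and 117 in Ch5, 144 and 138 in Ch7, and 164 and 132 in Ch8, with the paternal allele alone read in each. Ch3 was the highest in both libraries, by a log2 fold change of 0.56 ± 0.138 (SE) over Ch5, with an adjusted p over the 4 clones of 0.0495 (edgeR). The call was lost with DESeq2 size factors (0.0514) and without either library of Ch3 (0.330 and 0.123), the second of Ch5 (0.0543) or either of Ch7 (0.103 and 0.115).

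Usp29 (adjusted p = 0.579), Zim1 (0.670), Magel2 (0.119) and Peg12 (0.367) did not pass the edgeR test of level. Peg12 varied least, from 217 to 271 CPM over the 8 libraries, and the widest log2 fold change, of Ch7 against Ch5, was -0.22 (95% interval -0.43 to -0.006). Magel2 was at 1.97 and 1.44 CPM in Ch3, 1.99 and 2.04 in Ch5, 1.61 and 2.37 in Ch7, and 3.99 and 2.69 in Ch8. Ch8 was highest in both libraries, but Magel2 passed only when genes of low counts were not removed (adjusted p = 0.0141).

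**Figure D4:**
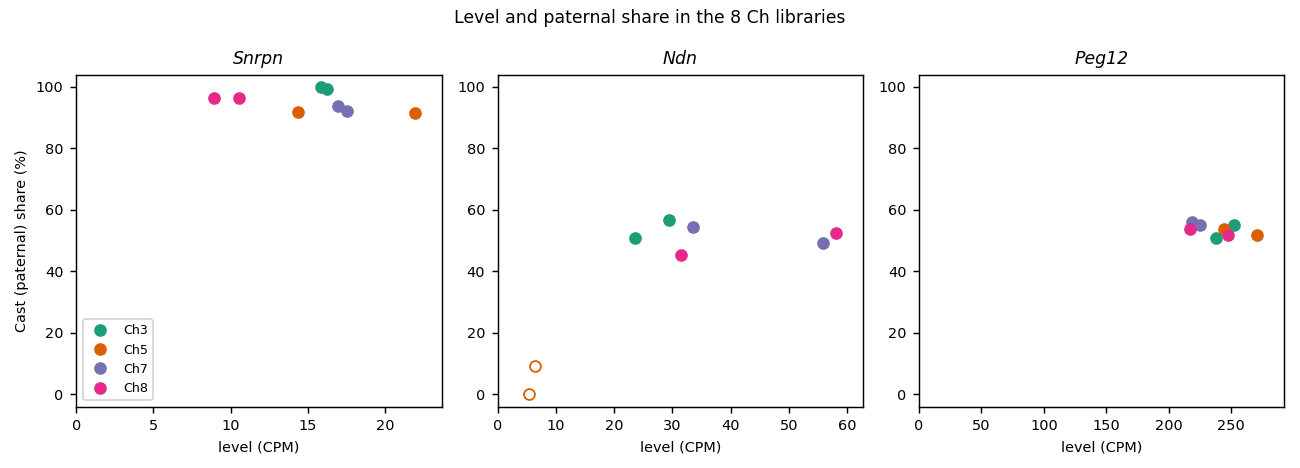
Level in CPM (x axis) and percentage of Cast reads (y axis) of Snrpn, Ndn and Peg12 in the 8 Ch libraries, coloured by clone, with open points for under 20 allele-specific reads. The Ndn libraries of Ch5 lie at 5.35 and 6.45 CPM and under 10% Cast, away from the others, while the Peg12 libraries of all clones lie together.

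Between astrocytes and poly(A) NPCs, Peg12 was the 1 member of 6 tested whose level differed, beside 12.6% of the 18192 genes tested that were lower and 13.0% that were higher in astrocytes. It was at 12.7, 22.0, 17.0, 20.1 and 6.0 CPM in the astrocyte clones and at 167, 147 and 191 CPM in the NPC clones, and the groups did not overlap. The mean was 15.6 ± 6.40 CPM (SD, n = 5) in astrocytes and 168 ± 21.7 CPM (SD, n = 3) in NPCs, a log2 fold change of -3.43 ± 0.375 (SE), or 10.8-fold higher in NPCs (edgeR, adjusted p = 0.000738). Among the clones that read Peg12 from the paternal copy alone, NPC_mG2 had 147 CPM and the astrocyte clones 12.7 and 6.0 CPM. The summed proliferation markers moved with this difference, and their part in it was not tested.

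The other members had overlapping levels in the 2 cell types. The log2 fold change of astrocytes over NPCs was 0.73 ± 0.521 (SE) for Peg3 (adjusted p = 0.333), 0.95 ± 0.690 for Usp29 (0.343) and 0.54 ± 0.428 for Snrpn (0.386, all edgeR). It was -0.32 ± 0.634 for Ndn (adjusted p = 0.747) and -0.05 ± 0.581 for Zim1 (0.965, edgeR). Single clones moved these values, none of which was called: without Astro_G4 they were 0.06 for Peg3, 0.51 for Usp29 and 0.24 for Snrpn, and without Astro_mC3 the value for Ndn was -0.95. Snrpn had 0.27 without NPC_F5 and 0.90 without NPC_mG2, and Zim1 had 0.20 without Astro_129 and -0.53 without Astro_G4. With sex as a covariate they were 0.38 for Peg3 and 0.42 for Usp29. Magel2 had too few reads to be tested. Among the other genes of the Snrpn domain, Mkrn3 (adjusted p = 0.145), Ube3a (0.562) and Atp10a (0.723) did not pass the edgeR test either, so 0 of these 3 were called.

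A list of imprinted genes outside both domains gave a background for the states. Of 81 ratios of paternally expressed genes, 28 (34.6%) lay past the paternal limit, and of 17 ratios of maternally expressed genes, 10 (58.8%) lay past the maternal limit. Igf2r alone gave 12 of these 17 ratios and 7 of the 10 past the limit. Mest, which encodes a hydrolase-like protein, was paternal in 8 of 11 clones and Peg10, a retrotransposon-derived gene, in 5 of 12. Zrsr1, a splicing factor gene, was biallelic in all 12. Of the paternally expressed genes on this list, Mest, Sgce, Nap1l5, Plagl1 and Dlk1 passed the maternal limit in at least 1 clone, as Ndn did in Ch5. Mest had 0.08% Cast in Astro_C2 (1231 allele-specific reads), Sgce 6.21% in Astro_129 (1305 reads) and Nap1l5 0.52% in Astro_G4 (383 reads). Plagl1 had 6.12% in Ch5, 1.41% in Ch7 and 0% in Ch8.

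The autosomal genes outside both domains whose ratio followed Peg3 most closely over the 12 clones were Airn, Gm16574, Pax9, Peg10 and Frmd6, of 8605 genes. Their mean absolute differences from Peg3 were 10.1, 11.7, 13.1, 13.2 and 15.1 percentage points, against a median of 31.4 over all of these genes. None of the 5 matched Peg3 in every clone, since their largest differences were 37.5 to 48.1 points. The lowest Cast share was 0.232% for Airn and 0% for Gm16574, against 47.3% for Peg3. Airn is the paternally expressed non-coding RNA of the Igf2r domain. The genes most like Snrpn were Peg10, Gm13337, Rpsa-ps4, Gm3940 and Ldha-ps2, with differences of 9.53 to 10.7 points. The last 4 never fell under 92.5% Cast in any clone, so they match Snrpn only in the clones where it was paternal, and pseudogenes share reads with their parent genes.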

How the data were processed

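RNA-seq libraries of 12 clones were analysed from the deposited tables of counts. The authors masked the GRCm38 (mm10) genome at SNPs between the strains, aligned read pairs with TopHat2 (2.1.0) and Bowtie2, assigned them to an allele with SNPsplit and made the gene counts by stranded counting in featureCounts (1.5.1). The annotation version is not given in the sources used here. The deposited Cast fraction, given from 10 allele-specific reads, equals the counts' ratio and was not used otherwise.

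Of 50600 identifiers, 32722 were given a symbol. The 7 members, the lists and the rule for named genes (domain genes, the 4 nearest flanking genes on each side with 20 reads in at least 8 clones, imprinted genes and the 5 genes of most similar ratio) were chosen with earlier results of these data known. Counts were tested with edgeR 4.0.16 (quasi-likelihood, TMM, its expression filter, R 4.3.3), with adjusted p under 0.05 over all genes. Allelic ratios among Ch clones were tested as the interaction of clone and allele in genes with 20 allele-specific reads in every clone. Fisher's exact test (scipy 1.17.1) compared the 2 libraries of a clone. The 2 libraries of a Ch clone differed by more than sampling noise (chi-square per degree of freedom 9.47 to 53.3). Nothing says that they came from separate cultures, so p-values measure the spread between libraries, which may be technical. Wilson intervals cover counting error only. Y-linked genes had no allele-specific reads, so Cast reads assigned to 129 could not be counted. The steps were tested on simulated data with 200 genes changed by 2 on the log2 scale of level or odds. The test of astrocytes against poly(A) NPCs recovered 106 of these, so a gene not called there can still differ. Among Ch clones, 198 were recovered for level and 170 for ratio, and Fisher's test recovered 162. Alternatives were DESeq2 1.42.0, its size factors, no filter, sex as a covariate, a replicate block, other read minimums and limits, single Ch libraries and leaving out each library or clone. A count without Zim1 was added after seeing the data.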

Additional observations from a re-analysis of the deposited data

Results flagged for a closer look

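Of 12 sets of values over the 5 astrocyte clones (levels and ratios of the members), 1 had a clone far from the others. The Peg3 level of Astro_G4 was 741 CPM, and the nearest clone, Astro_129, had 228 CPM. The gap was 0.874 of the whole range, above the limit of 0.71 for 5 samples. Chance gives a gap above this limit in about 1 in 20 sets, and 12 sets were screened. Astro_G4 was biallelic for Peg3, and its Usp29 level of 12.1 CPM was also the highest of the astrocytes, next to 11.2 CPM in Astro_129.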

How the results depend on the processing

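For single members, 202 values kept their direction and side of the threshold under the alternatives run, 8 (of Peg3 and Snrpn levels among Ch clones) lost the call and 1 (Magel2) gained it. The level of Zim1 in astrocytes against NPCs, which was not called, changed sign from -0.05 to 0.20 without Astro_129, 0.05 without Astro_mE6 and 0.06 without NPC_mG2. Leaving out 1 library gave -0.53 to 0.20 for Zim1, 0.06 to 0.87 for Peg3, 0.51 to 1.13 for Usp29, 0.24 to 0.90 for Snrpn and -0.95 to -0.13 for Ndn, none of them called. Without the filter on low counts, the number of genes that differed in level among Ch clones rose from 2834 to 4361. Leaving out 1 library at a time gave 1509 to 3244 such genes, with 1868 and 1509 without the first or second library of Ch3 and 1832 and 1803 without those of Ch7. For astrocytes against poly(A) NPCs, the main count of 4644 genes became 2269 to 4849, with 2667 without NPC_F5, 2269 without NPC_mG2 and 3030 without NPC_mG6. These fits rest on 1 fewer sample each. Leaving out 1 clone at a time gave 27 to 32 values on the imprinted allele, against 32 of 71, and limits of 5 and 95% gave 27. The number of genes whose ratio differed among Ch clones was 846 to 1094 without 1 library. The call of Peg12 between cell types held in all 8 such fits. Deviations of same-numbered Ch libraries correlated between -0.28 and 0.42 over 6 pairs of clones. The replicate numbers thus showed no pairing common to all Ch clones, but an effect shared by some of them is not excluded. With a replicate block, 3391 genes differed in level and 1006 in ratio, and no call on a member changed. The alternatives for share against level gave no value, since no correlation was computed. Allele-specific depth limits Zim1, Usp29 in the Ch clones, Ndn in Ch5 and Magel2.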
